A study of Mus musculus with 6 samples.

Results

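ATAC-seq of distal forelimb buds gave 61954 merged peaks on the 19 autosomes, and 518 of them formed a set of distal peaks at which accessibility was weakened in Hox13-/- embryos while a measurable signal remained. The members were chosen by their deposited regularized log (rLog) values in the same 4 libraries, which are on a log2 scale. The mean of the Hox13-/- libraries had to lie at least 0.58 below the wild-type mean, which is a fold of 1.495, with both wild-type values above both Hox13-/- values. The Hox13-/- mean had to be 4.5 or higher, and the midpoint of the peak had to lie over 1 kb from every GENCODE transcription start site (TSS). The difference alone left 993 peaks, all of them with the libraries apart, the distance to a TSS left 906, and the level left 518. The genotype contrast therefore chose the members, and their fall is given here as a description.

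The libraries were made from distal forelimb buds of E11.5 embryos on a mixed C57Bl/6 x 129 background, 2 from wild type and 2 from Hox13-/-. In Hox13-/- embryos both Hoxa13 (Hoxa13Str allele) and Hoxd13 (Hoxd13lacZ allele) carry null alleles in every cell. Each library came from 50000 cells of the left and right buds of 1 embryo, so the spread within a genotype is that between 2 embryos. A further 2 libraries, of proximal limb buds, were not analysed here. The values are bulk measurements, in which fewer cells of a type and less open chromatin per cell cannot be told apart. Without read counts in the deposited values, the depth of a given peak is unknown.

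HOXA13 and HOXD13 (HOX13) are homeodomain transcription factors of the distal limb bud and are required for digits to form. HOX factors of this posterior group bind sites around the letters TAAA, such as CAATAAA, which differ from the TAATTA core bound by most homeodomain proteins. ATAC-seq maps open chromatin from the places where the transposase Tn5 puts adapters into the genome, and peaks far from a TSS are often enhancers, which can act on a gene over long distances.

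The sequences below are stretches of weakened peaks, shown because they carry the letters that were searched. Each is the stretch of 140 bp with most matches inside its peak, on the plus strand of mm10 (RefSeq GRCm38). Capitals mark CNATAAA or TCGTAAA on either strand, where N is any base, so a site on the minus strand reads TTTATNG or TTTACGA. These 3 come from the members with the largest falls that lie furthest from a coding TSS.
Slc38a4 peak, chr15:96882087-96882226: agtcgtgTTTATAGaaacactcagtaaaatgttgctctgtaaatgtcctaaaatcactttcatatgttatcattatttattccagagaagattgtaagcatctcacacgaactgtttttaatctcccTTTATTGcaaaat
1190002N15Rik peak, chr9:94046046-94046185: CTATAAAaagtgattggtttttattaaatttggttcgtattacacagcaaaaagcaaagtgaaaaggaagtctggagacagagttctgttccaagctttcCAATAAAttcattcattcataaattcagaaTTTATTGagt
Myh15 peak, chr16:49289940-49290079: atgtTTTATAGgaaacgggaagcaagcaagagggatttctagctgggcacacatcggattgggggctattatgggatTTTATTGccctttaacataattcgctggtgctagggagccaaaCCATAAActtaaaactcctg

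The next peaks lie nearest to limb genes, namely Sox9, the master regulator of cartilage, Epha4, a receptor of ephrins, Gli3, the repressor of Hedgehog signalling, Bmp2, a ligand of the BMP pathway, and Evx2, the homeobox gene beside Hoxd13.
Sox9 peak, chr11:112175022-112175161: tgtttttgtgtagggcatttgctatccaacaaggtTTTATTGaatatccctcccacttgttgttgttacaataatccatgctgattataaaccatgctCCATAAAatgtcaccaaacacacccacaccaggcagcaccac
Epha4 peak, chr1:76530441-76530580: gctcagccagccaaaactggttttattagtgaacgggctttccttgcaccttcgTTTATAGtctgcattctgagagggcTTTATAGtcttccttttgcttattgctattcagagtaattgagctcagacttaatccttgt
Gli3 peak, chr13:15209427-15209566: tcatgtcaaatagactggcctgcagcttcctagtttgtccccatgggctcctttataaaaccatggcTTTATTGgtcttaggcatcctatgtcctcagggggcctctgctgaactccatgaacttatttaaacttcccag
Bmp2 peak, chr2:133666826-133666965: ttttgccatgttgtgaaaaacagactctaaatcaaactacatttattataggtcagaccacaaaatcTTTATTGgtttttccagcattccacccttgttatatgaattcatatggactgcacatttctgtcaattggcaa
Evx2 peak, chr2:74619733-74619872: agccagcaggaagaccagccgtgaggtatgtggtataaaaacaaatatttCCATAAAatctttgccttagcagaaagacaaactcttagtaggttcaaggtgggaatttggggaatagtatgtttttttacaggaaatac

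The rule sets a floor on the values of the weakened peaks in both genotypes. Their levels are therefore given as a description, and lying above those of all peaks is no finding. In wild type the library medians over the 518 peaks were 6.08 and 6.03, and in Hox13-/- they were 5.23 and 5.19. Over all 61954 peaks the library medians were 4.70, 4.71, 4.74 and 4.74. The median difference was -0.01 over all peaks. It was 0.15 over the other 19008 distal peaks with a Hox13-/- mean of 4.5 or higher (other open distal peaks) and 0.07 over all 40535 distal peaks. The other open distal peaks were selected on the Hox13-/- level and leave out the members, so the sign of their median is fixed in part by the selection. The genotype difference of the members ranged from -1.91 to -0.58, with a median of -0.74 and quartiles of -0.93 and -0.65. On the linear rLog scale the peaks kept a median of 59.7% of their wild-type value, from 26.7 to 66.9%. Only 90 members (17.4%) fell beyond 1 on the log2 scale, whereas 199 (38.4%) lay between the threshold and -0.7.

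By limma, fitted on all peaks of the table, 8.31% of peaks were lower in Hox13-/- at an adjusted p under 0.05, and all 518 members were among them. Over all peaks, 5146 were lower and 7040 higher, and with each library centred on its median 6811 were lower and 6017 higher. Both wild-type values lay above both Hox13-/- values at 29.6% of all peaks. As the rule used this contrast, neither count bears on the members. The gap between the lowest wild-type and the highest Hox13-/- value had a median of 0.605, and at its narrowest it was 0.0792. The SD within a genotype (n = 2) had a median of 0.0875 in wild type and of 0.0978 in Hox13-/-.

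**Figure D1:**
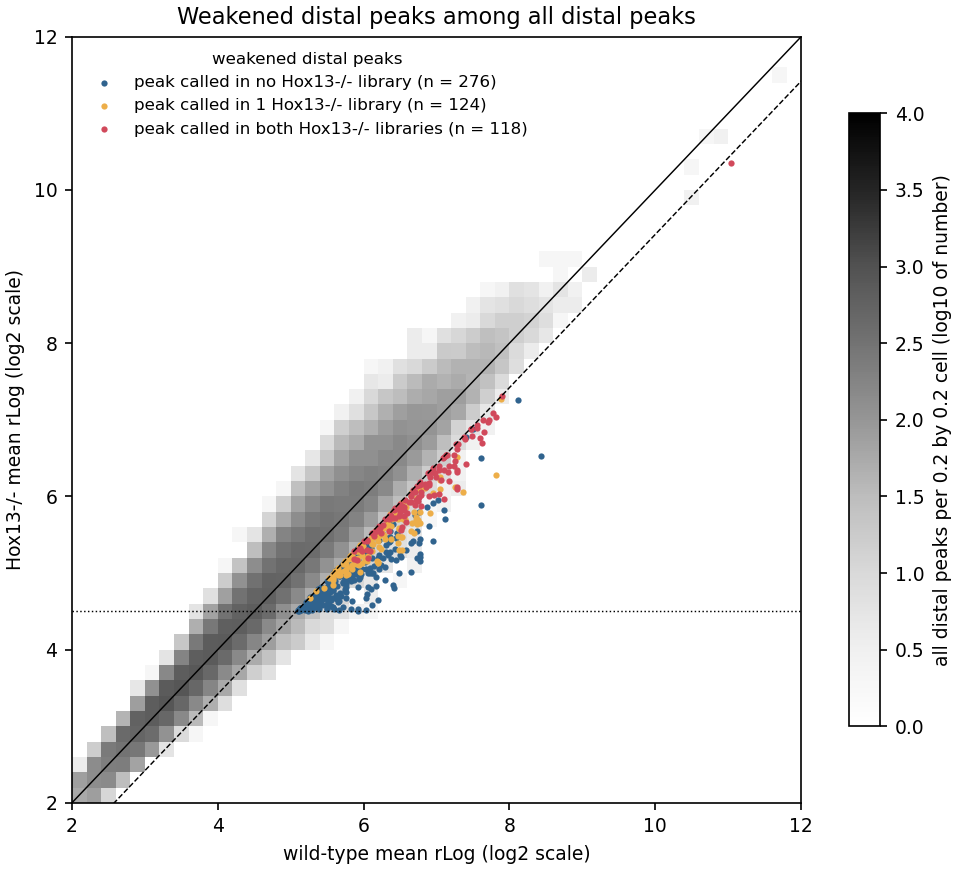
Mean rLog (log2 scale) in wild type against Hox13-/- for all 40535 distal peaks, as grey cells shaded by the log10 of their number, and for the 518 weakened peaks, as points coloured by the number of Hox13-/- libraries in which the peak was called (276 in none, 124 in 1, 118 in both). The solid line marks equal values, the dashed line a difference of -0.58 and the dotted line the level of 4.5, and the points fill the corner below the dashed and above the dotted line.

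The edges of the set were sharp only by rule. Just inside the difference threshold were peaks near Runx1t1, Chd7 and Kdelr3, with differences of -0.58 each. With cyclic loess normalization the peaks near Runx1t1 and Chd7 would leave the set, at -0.53 and -0.55, and with quantile normalization the Runx1t1 peak would, at -0.56. Without wild-type replicate 2 the Runx1t1 peak differed by -0.40 and did not pass the test (limma adjusted p = 0.053), with the spread then taken from the Hox13-/- libraries alone. Just outside it were peaks near Gdf6, Nell1 and Tfap2a, which likewise round to -0.58. Just inside the level threshold, the peaks near Svopl, Spred2 and Klhl32 had Hox13-/- means of 4.51 each. Just outside it, the peaks near Sptlc1, Tars and Dtnb had 4.498, 4.498 and 4.494. The set is a range cut from a continuum, and 182 members (35.1%) had a Hox13-/- mean under 5.

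Whether the weakened peaks stayed open was examined with a readout that is not in the rule, the libraries in which the authors' peak caller found each merged peak. The calls come from the same 4 libraries as the rule, so they too are a description. In wild type, 492 of the 518 members were called in both libraries, against 47.1% of the other open distal peaks and 38.2% of all peaks. In Hox13-/-, 276 members (53.3%) were called in neither library, 124 (23.9%) in 1 and 118 (22.8%) in both. A call was thus made in at least 1 Hox13-/- library at 242 members (46.7%), against 98.1% of the other open distal peaks. The number of calls was not lower in Hox13-/- as a whole, with 38401 and 27241 peaks of the table called in the wild-type and 38621 and 45587 in the Hox13-/- libraries. The calls go partly against the name open, and the members are therefore called weakened peaks.

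The difference in calls was widest at low values. With a Hox13-/- mean of 4.5 to 5, 12 of 182 members (6.59%) were called in a Hox13-/- library, against 94.7% of 5255 other open distal peaks. From 5 to 5.5 the share was 45.9% against 98.8%, and from 5.5 to 6 it was 84.0% against 99.6%. At 6 or higher, 78 of 83 members (94.0%) were called, against 99.9%. Members were also longer windows at the same value. In the lowest bin the median length was 359.5 against 250 bp, and the Hox13-/- value per kb (the rLog value less the log2 of the length in kb) was 6.20 against 6.75. A rLog value sums the reads of a window, so the same value in a longer window stands for a lower density. A merged peak is in the table if it was called in any of the 4 libraries. The part of window length, and of entry by a wild-type call, in these shares was not tested.

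**Figure D2:**
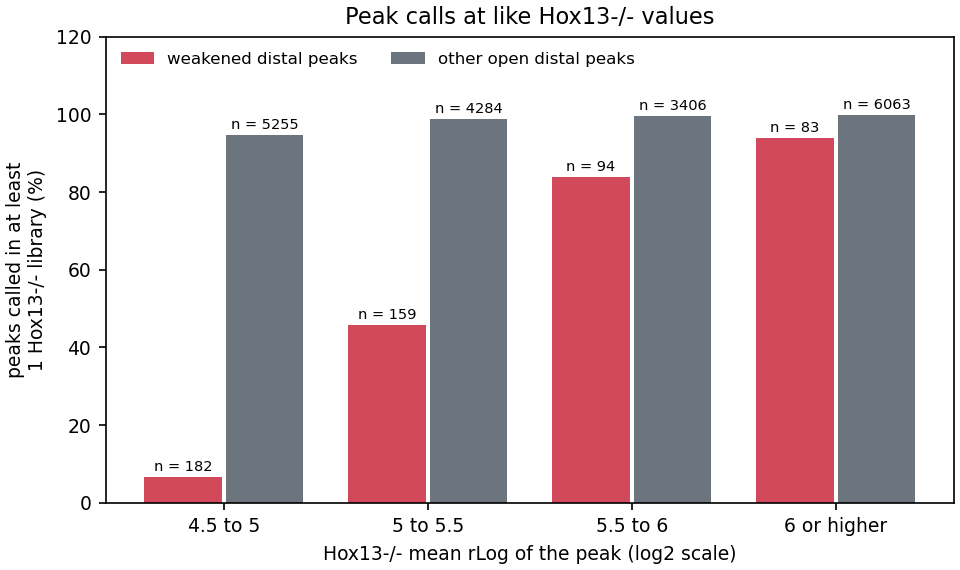
Share of peaks (%) called in at least 1 Hox13-/- library, by the mean Hox13-/- rLog value of the peak (log2 scale), for weakened peaks (red) and other open distal peaks (grey), with the number of peaks above each bar. The share of weakened peaks climbs from 6.59 to 94.0% across the bins while that of the other peaks stays between 94.7 and 99.9%.

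Per kb, the weakened peaks had a median Hox13-/- value of 6.43. This lies between the 5.86 of the 388 lowered distal peaks with a Hox13-/- mean under 4.5 and the 7.05 of the other open distal peaks. In wild type the values per kb were 7.24 in the members, 6.92 in the other open distal peaks and 6.61 in the lowered peaks under 4.5. The sets were defined by the levels themselves, so the order of these medians is no finding. None of those 388 peaks was called in a Hox13-/- library. Members called in both Hox13-/- libraries had a median difference of -0.69, against -0.79 at members called in neither. They were longer as well, with a median of 565.5 against 411.5 bp.

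Of all members, 3.09% lay nearest to one of 81 genes taken as limb genes. None of the 10 largest falls did, which at so low a share does not set them apart. The peak nearest to Ezh2, which encodes the methyltransferase of Polycomb complex 2, is intergenic on chromosome 6 from 47650850 to 47651561, 55.86 kb upstream of its TSS. Its values were 8.42 and 8.45 in wild type against 6.64 and 6.42 in Hox13-/-, a difference of -1.91 (standard error 0.125). The genotypes lay far apart, and yet this peak, one of the strongest members in wild type, was called in neither Hox13-/- library. It has a GC content of 61.4% and no match to CNATAAA or TCGTAAA. An intronic peak of Nbas (chromosome 12, 13460106 to 13460864) had values of 7.61 and 7.62 against 5.95 and 5.83. It too has no match and was called in neither Hox13-/- library.

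The intergenic peak on chromosome 15 from 96881642 to 96882285 lies 137988 bp downstream of the TSS of Slc38a4, an amino acid transporter gene. Its values were 6.66 and 6.63 in wild type against 5.23 and 4.80 in Hox13-/-, so that the Hox13-/- libraries differed more from each other than the wild-type ones did. The peak nearest to 1190002N15Rik, on chromosome 9 from 94045828 to 94046378, lies 491978 bp from that TSS. It had 6.53 and 6.29 in wild type against 4.97 and 4.72 in Hox13-/-, and its 3 matches all lie in the stretch shown above. Near Myh15, a myosin heavy chain gene, the peak on chromosome 16 from 49289243 to 49290177 had 7.82 and 7.82 against 6.34 and 6.22. It holds 4 matches in its 935 bp, and was the only one of the 10 peaks with the largest falls that was called in a Hox13-/- library. The other 5 of these 10 lie near Osbpl1a, Rpgrip1, Zfp438, Aph1c and Hmcn1, with differences of -1.63, -1.62, -1.57, -1.55 and -1.54. Of the peak at Rpgrip1, 49.5% is repeat-masked sequence.

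At the other end were members with a strong signal in both genotypes. The highest Hox13-/- mean belonged to an intergenic peak 3918 bp upstream of Tmem125, on chromosome 4 from 118547176 to 118548749, with 10.9 and 11.2 in wild type against 10.5 and 10.2 in Hox13-/-. It was called in all 4 libraries, has a GC content of 62.7% and holds no match. Its difference of -0.69 was -0.34 with quantile and -0.44 with cyclic loess normalization, which would leave it out of the set. A peak 416.69 kb upstream of Zmiz1, a coactivator gene, had 7.79 and 8.01 against 7.30 and 7.32. Its difference of -0.59 was -0.52 with quantile and -0.49 with cyclic loess normalization, so it too would leave the set. A peak 480.94 kb downstream of the TSS of Epha4, in an intron of Gm816, had 7.92 and 7.63 against 6.99 and 7.18, and was also called in all 4. The peaks near Tcp10c and Frmd4a that complete the 5 highest are less regular. The Tcp10c peak is 216 bp of wholly repeat-masked sequence, and the Frmd4a peak is 90 bp long and was called in 1 wild-type library only. The difference at Tcp10c was -0.61 with all libraries, and it was -0.55 with quantile and -0.52 with cyclic loess normalization, both outside the rule. Without Hox13-/- replicate 2 it was -0.36 and did not pass the test (limma adjusted p = 0.12), with the spread taken from the wild-type libraries alone.

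**Figure D3:**
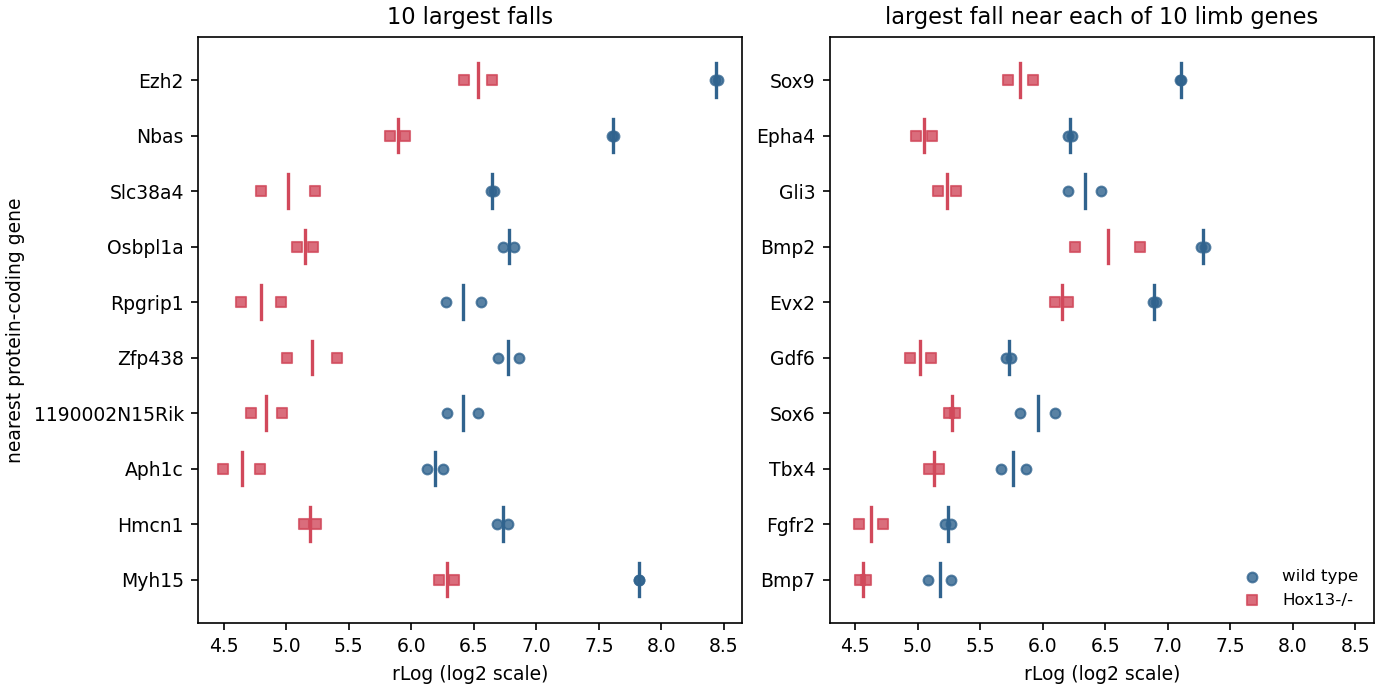
rLog values (log2 scale) of the 4 libraries at the 10 members with the largest falls (left) and at the member of largest fall near each of 10 limb genes (right), labelled by the nearest protein-coding gene, with wild type as blue circles, Hox13-/- as red squares and vertical bars at the genotype means. The differences run from -1.91 (Ezh2) to -1.54 (Myh15) on the left and from -1.28 (Sox9) to -0.61 (Bmp7) on the right, and the Hox13-/- libraries lie furthest apart at Bmp2.

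Of 81 genes known from distal limb, proximal limb and skeletal development, 11 were the nearest coding gene of a member. They accounted for 16 members (3.09%), against 2.67% of the other open distal peaks, 5.15% of the lowered peaks under 4.5 and 2.91% of the 1784 distal peaks that were raised by 0.58 or more with a wild-type mean of 4.5 or higher. These raised peaks are all among the other open distal peaks. By group, 7 of 62 distal and digit genes, 1 of 7 proximal genes and 3 of 12 skeletal genes had a member. As shares of the peaks, 1.93% of members lay nearest to a distal and digit gene, 0.193% to a proximal and 0.965% to a skeletal gene, against 1.86, 0.263 and 0.552% of the other open distal peaks. Nearest genes are a label of position, and the distances were long. Only 8 members (1.54%) lay within 100 kb of the TSS of a listed gene, against 1.84% of the other open distal peaks, and 3 members (0.579%) had a listed gene as the nearest of all annotated genes, against 0.852%.

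Among the skeletal genes, the peak nearest to Sox9 is intergenic on chromosome 11 from 112175000 to 112175874, 606.79 kb upstream. It had 7.11 and 7.10 in wild type against 5.92 and 5.72 in Hox13-/-, a difference of -1.28 (standard error 0.128), and 4 matches to CNATAAA or TCGTAAA. The wild-type libraries were almost equal, and both Hox13-/- libraries lay more than 1 below them on this scale. Gdf6, a ligand of the BMP family expressed at joints, had 3 members at 13.46, 137.42 and 311.65 kb downstream of its TSS, with differences of -0.71, -0.70 and -0.64. The first of these, in an intron of Gdf6, had 5.71 and 5.75 against 4.94 and 5.11. Another peak at Gdf6 missed the difference threshold narrowly, as given above. The Sox6 peak, 392.73 kb from the TSS of this partner of Sox9, had 5.82 and 6.10 against 5.25 and 5.30, and no match.

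Of the signalling genes, Epha4 had 3 members, the one of largest fall on chromosome 1 from 76530209 to 76530789. Its values were 6.23 and 6.20 in wild type against 5.12 and 4.99 in Hox13-/-, a difference of -1.17 (standard error 0.130). It lies 847.11 kb from the TSS of Epha4, so the gene that it acts on, if any, is not given by its position. Gli3 had a pair of members, 253.82 kb upstream of its TSS and, in an intron, 80.33 kb downstream. The upstream peak, on chromosome 13 from 15209195 to 15209630, had 6.20 and 6.47 against 5.16 and 5.31 (difference -1.10, standard error 0.130), and the intronic one a difference of -0.68. At Bmp2, the peak on chromosome 2 from 133666263 to 133667234 had 7.30 and 7.26 in wild type against 6.26 and 6.78 in Hox13-/-. The Hox13-/- libraries there differed by more than the gap between the genotypes, and the peak was called in 1 of them. The difference was -0.76 with all libraries, -0.50 without Hox13-/- replicate 1 and -1.02 without Hox13-/- replicate 2.

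At the remaining limb genes no fall was larger than the median of the set. The Evx2 peak, on chromosome 2 from 74619733 to 74620346, lies 39.38 kb downstream of the TSS of Evx2 and had 6.88 and 6.91 against 6.10 and 6.20. It was called in all 4 libraries. Hoxd13, the neighbour of Evx2, carries the Hoxd13lacZ allele in the mutants, and the part of that allele in this difference was not tested. The Fgfr2 peak, in an intron of this FGF receptor gene, had 5.22 and 5.27 against 4.72 and 4.53. Peaks near Tbx4, the T-box gene of the hindlimb, and Bmp7, another BMP ligand, differed by -0.64 and -0.61.

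The weakened peaks were scattered over the genome. They had 443 nearest coding genes, of which 380 had 1 member, 52 had 2, 10 had 3 and 1 had 4. The gene with 4 was Cacna2d3, a calcium channel subunit gene that neighbours Wnt5a, and these were 4 of its 20 open distal peaks. The strongest of them, intergenic on chromosome 14 from 28879472 to 28879956, had 6.23 and 6.11 in wild type against 4.93 and 4.97 in Hox13-/-, a difference of -1.22. The other 3, in introns of Cacna2d3, had differences of -1.12, -0.69 and -0.67 and formed the only run of 3 members each within 50 kb of the next, over 33.4 kb. Atp5g3, whose neighbour is the regulatory landscape upstream of Hoxd13, had 3 members at 164.56, 277.04 and 279.48 kb upstream of its TSS. The last of them, on chromosome 2 from 74190549 to 74191064, had 5.91 and 6.17 against 4.89 and 4.56, a difference of -1.31. Here too the part of the Hoxd13lacZ allele was not tested. Atp5g3 had 13 open distal peaks. The other genes with 3 members are given with their number of such peaks. They were Cpq (3), Epha4 (19), Frmd4a (26), Gdf6 (13), Hdac9 (17), Sulf1 (10), Zfhx3 (35), Zfp521 (26) and Zmiz1 (31). At Cpq the members were all 3 of its open distal peaks, with differences of -0.92, -0.79 and -0.77.

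A median of 0.837 Mb separated a member from the next one, and 47 members (9.07%) had another within 50 kb. Such neighbours formed 23 groups. The share of open distal peaks that were members ran from 1.32% on chromosome 11 to 3.64% on chromosome 12. Within 10 kb of a member lay 677 other peaks, whose median difference was -0.06. By limma 123 of them (18.2%) were lower in Hox13-/-, and 51 (7.53%) were higher, against 8.31 and 11.4% of all peaks. Most of these peaks did not pass the test for a fall. Of the 677, 89 (13.1%) lay within 1 kb of a TSS, against 21419 of all 61954 peaks, so the groups compared are unlike in position. Any other peak of the table lay within 10 kb of 331 members (63.9%).

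Position and composition were compared with those of the other distal sets. Of the 518, 262 (50.6%) lay in introns, 244 (47.1%) were intergenic, 7 lay in UTRs and 5 in other exons of annotated genes, which was near the 49.8% intronic and 45.9% intergenic of the other open distal peaks. The median distance was 18.7 kb to any TSS and 53.5 kb to a coding TSS, against 35.2 kb to a coding TSS in the other peaks. Over 100 kb from a coding TSS lay 174 members (33.6%), against 26.7% of the other open distal peaks, 32.7% of the lowered peaks under 4.5 and 38.5% of the raised peaks. Members were longer, with a median of 439 against 355 bp, and lower in GC content, with 44.5 against 49.1%. The raised peaks were longer still, at 533 bp, and the lowered peaks under 4.5 were lower in GC content, at 43.1%. Length is linked to the level that the rule used, and length and GC content both change how often short letters rich in A and T occur.

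The letters CAATAAA or TCGTAAA, taken as the HOX13 core and searched on both strands over the whole peak, occurred in 166 members (32.0%). They occurred in 12.7% of the other open distal peaks, 21.9% of the lowered peaks under 4.5, 16.3% of the raised peaks and 9.47% of all 40535 distal peaks. With CNATAAA and TCGTAAA, which include the core, the shares were 65.3% of members, 28.3% of the other open distal peaks, 50.3% of the lowered peaks under 4.5, 35.8% of the raised peaks and 21.8% of all distal peaks. Per kb of sequence the members held 2.08 such matches, against 0.91 in the other open distal peaks and 2.35 in the lowered peaks under 4.5. The members were longer than those lowered peaks, with medians of 439 and 272 bp. In the 200 bp around the midpoint, a core match was found in 18.9% of members, 17.8% of those lowered peaks and 7.17% of the other open distal peaks, so the members and the lowered peaks under 4.5 were close in a window of equal length. The part of CAATAAA was the larger, in 30.1% of members, while TCGTAAA was found in 2.70% of members and 1.95% of the other open distal peaks.

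The matches were gathered at the middle of the peaks. In the 50 bp centred 25 bp before the midpoint there were 3.55 matches per kb to CNATAAA or TCGTAAA, and 475 bp away there were 0.656 on either side. In the other open distal peaks the values were 1.14 at the same place, and 0.567 and 0.576 at 475 bp. Between these places the values varied from bin to bin, and at 325 bp before the midpoint the members had 0.965 against 0.616. The lowered peaks under 4.5 had a maximum of 3.09, just after the midpoint. TAATTA, the core of most homeodomain proteins, showed no such pattern in the members, with 0.772 per kb just before and 0.27 just after the midpoint, on 20 and 7 matches.

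**Figure D4:**
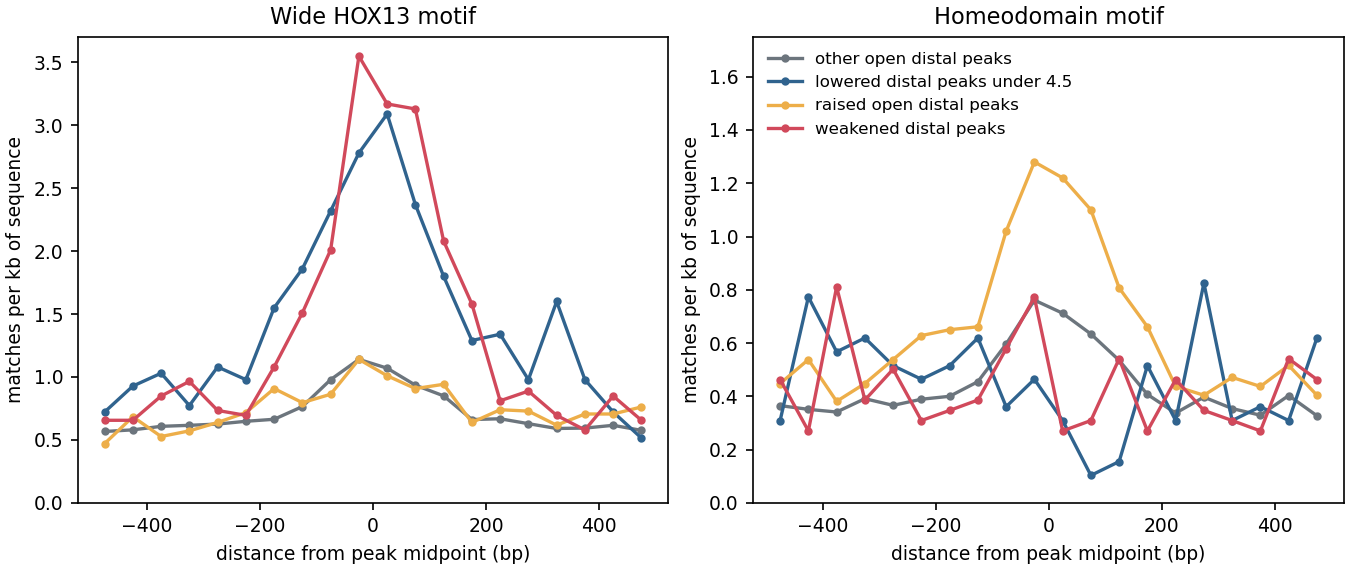
Matches per kb of sequence in bins of 50 bp against the distance from the peak midpoint in bp, for the wide HOX13 motif (left) and the homeodomain motif (right) in 4 sets of distal peaks, of which the raised peaks are also counted among the other open distal peaks. On the left the weakened peaks reach 3.55 per kb beside the midpoint and return to 0.656 at 475 bp, whereas on the right the raised peaks have the highest values, up to 1.28.

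Open distal peaks were also split into 4 classes of like number by GC content, and by length. For the wide letters the share with a match was 71.8% of 277 members against 44.9% of the other peaks in the class of lowest GC content, then 63.6 against 34.7%, 60.9 against 23.7% and, in the class of highest GC content, 8 of 32 members against 11.1%. For the core the members had the higher share in the first 3 classes, and in the class of highest GC content 1 of 32 members (3.12%) had a match, against 4.54%. Over classes of length the wide letters occurred in 71.4% of members against 14.6% (21 members), 54.5 against 24.2%, 66.0 against 31.8% and 69.5 against 43.5%. Each of the 32 words NNATAAA and NNGTAAA was also counted by itself. Of these, 31 had a higher share in the members, with a median ratio of 1.82, and within the class of lowest GC content 28 did, with a median ratio of 1.32. These shares are over whole peaks, and the members were longer, with a median of 439 against 355 bp. The words were not compared within classes of length. The word with the highest ratio was ATATAAA, in 19.1% of members against 5.52% (ratio 3.46, and 2.3 in the class of lowest GC content). TTATAAA followed with 20.3 against 6.36% (3.19), then CTATAAA with 28.6 against 9.07% (3.15), TTGTAAA with 26.1 against 9.30% (2.80) and CAATAAA with 30.1 against 11.1% (2.72). Of these 5 words, CTATAAA and CAATAAA are among the wide letters. TCGTAAA had a ratio of 1.38 and was below 1 in the class of lowest GC content, at 0.714. A match is a run of letters and not a bound site, and binding of HOX13 was not analysed here.

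Other families of letters were counted in the same way. TAATTA occurred in 17.8% of members, against 19.3% of the other open distal peaks and 36.5% of the raised peaks. Per kb the values were 0.411, 0.57 and 0.824 in the same order. MEIS letters (TGACAG), named for cofactors of HOX proteins with a proximal limb role, occurred in 23.0% of members, 24.7% of the other open distal peaks and 37.3% of the raised peaks. E-box letters (CAGATG or CATATG), bound by bHLH factors such as TWIST1 and HAND2, occurred in 49.8% of members against 39.9% of the other open distal peaks. In the raised peaks the share was 46.8%. Per kb the values were 1.42 in members, 1.33 in the other open distal peaks and 1.18 in the raised peaks. AP-1 letters (TGANTCA) occurred in 82 members (15.8%), 11% of the other open distal peaks and 16.3% of the raised peaks. SOX letters (AACAATG or AACAAAG) occurred in 19.5% of members, 15.5% of the other open distal peaks and 20.9% of the raised peaks. Letters of the insulator protein CTCF were rare, in 4 members (0.77%), 2.45% of the other open distal peaks and 0.561% of the raised peaks. SP/KLF letters (GGGCGGG) were in 3.86% of members, 7.44% of the other open distal peaks and 4.43% of the raised peaks. GLI letters (TGGGTGGTC) occurred in 2 members (0.386%), against 0.384% of the other open distal peaks, and NFI letters in none, against 0.263%.

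**Figure D5:**
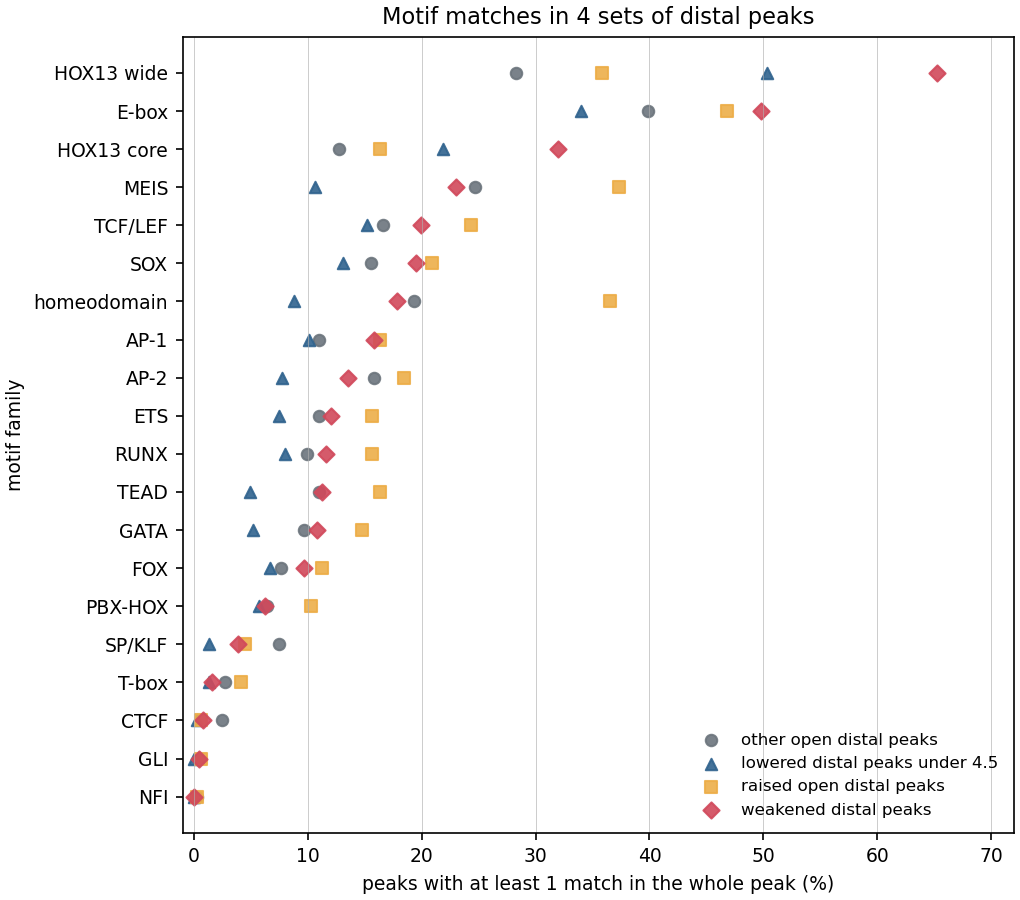
Share of peaks (%) with at least 1 match over the whole peak for each family of letters, in weakened peaks (red diamonds), other open distal peaks (grey circles), lowered distal peaks with a Hox13-/- mean under 4.5 (blue triangles) and raised open distal peaks (orange squares), which are also counted among the other open distal peaks. The weakened peaks stand highest for the wide HOX13 letters, at 65.3%, and raised peaks stand highest for MEIS and homeodomain letters, at 37.3 and 36.5%.

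The size of the fall varied little with the number of matches. The median difference was -0.72 at the 180 members with no match to the wide letters, -0.75 at 214 with 1, -0.78 at 81 with 2 and -0.78 at 43 with 3 or more. As the members were cut at -0.58, small falls are absent from each of these groups. A core match was found in 32.6% of members called in neither Hox13-/- library, 34.7% of those called in 1 and 28.0% of those called in both. E-box letters were found in 58.5% of members called in both Hox13-/- libraries and in 43.8% of those called in neither, which had shorter windows.

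Genotype differences were also read at the promoters of marker genes, which lie outside the set. They cannot check the tissue label. Wild-type levels do not either, with medians per kb of 7.22 at limb mesenchyme, 7.35 at endothelium and 7.24 at neural crest and glia genes. At ectoderm and muscle precursor genes these medians were 6.43 and 6.92. All 8 limb mesenchyme genes had a promoter peak, with a median difference of -0.003 between the genotypes, from -0.40 to 0.21. The lowest difference was at Twist1, with 6.09 and 6.18 in wild type against 5.92 and 5.55 in Hox13-/-, followed by Hoxd13 (-0.26) and Lmx1b (-0.20). The highest was at Prrx1, with 6.83 and 6.95 against 7.10 and 7.10. Of 6 genes each, 3 ectoderm, 3 endothelium, 3 neural crest and glia and 2 muscle precursor genes had one, with median differences of -0.13, -0.02, -0.22 and 0.01. Over all 21419 promoter peaks the median difference was -0.10. No promoter peak was found at the 6 blood genes, of which Gata1 is X-linked and off the autosomes of the table. The endothelial gene Erg had the most negative difference of its list at its promoter, with 5.51 and 5.43 against 4.94 and 5.08. At the endothelial promoters of Kdr and Tek the differences were -0.01 and -0.02. A member lies in an intron of Erg with 6.52 and 6.53 against 5.91 and 5.85. A member 514.91 kb from the TSS of Cdh5 and a pair 461.12 and 299.91 kb from that of Ptprc had these endothelial and blood genes as nearest coding gene. No member lay nearest to a listed limb mesenchyme, ectoderm, muscle precursor or neural crest and glia gene. How often the other open distal peaks lie nearest to the marker genes was not counted. Promoter peaks of Hoxa13 and Hoxd13 measure accessibility and not the alleles, so they do not check the genotype labels. The part of other cell types in the weakened peaks was not tested.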

How the data were processed

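ATAC-seq was analysed in 4 distal forelimb libraries, 2 per genotype. Per the submitters' processing notes and the methods, the authors mapped reads to mm10 (Bowtie2 2.3.1), called peaks per library (MACS2 2.1.1.20160309), and merged and quantified them (HOMER 4.9.1). Handling of duplicates, blacklisted regions and the Tn5 offset is not given in the sources used here. The authors deposited rLog values per library, made with DESeq2, which are on a log2 scale, scaled for library size and shrunk towards the mean of each peak, so that differences of peaks with few reads are understated. Columns deposited by the authors from their own comparison of the genotypes, a log2 fold change, a p-value and an adjusted p-value for each peak, were not used. The deposited column of libraries in which a merged peak was called was used as given. Replicates share only the labels' numbers.

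The rule of the set was applied to the rLog values, with GENCODE M21 start sites and coordinates taken as counted from 1. The members and all lists of genes and letters were chosen with earlier results of these data known. Genotype differences were fitted over all 61954 peaks (limma 3.58.1, R 4.3.3) with genotype as the term and the variance trended on mean signal. Tests were two-sided, with Benjamini-Hochberg adjustment. Tested on simulated data of the same 61954 peaks, the fit found each of 200 differences of 1.5 and called 21 others. A difference of 1.5 is larger than most members' falls, whose median was -0.74, and the simulated spread followed mean signal alone. The simulation therefore does not show how the fit performs at the members' own differences. Since each genotype has 2 libraries, the p of limma depends on pooling the spread over peaks. Of the table's rows, 1781 repeat all values of an earlier row, and no member does.

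Sequence came from GRCm38 (RefSeq), which is mm10, read with pysam 0.24.0 in Python 3.11.15 with pandas 2.3.3, numpy 2.4.6 and scipy 1.17.1, and figures were drawn with matplotlib 3.10.9. Besides the letters given in the text, PBX-HOX (TGATTNAT), ETS (AGGAAGT), TCF/LEF (CTTTGAT or CTTTGAA), TEAD (ACATTCC), RUNX (TGTGGTT), FOX (TGTTTAC), T-box (AGGTGTGA), factors of the GATA family (AGATAA), AP-2 (GCCNNNGGC), CTCF and NFI letters were counted on both strands. Peaks named were the 10 with the largest fall, the 5 with the highest Hox13-/- mean and 3 taken for most core matches. Of these 3, 2 had 3 matches and the third was 1 of 22 members tied at 2. Also named were the member of largest fall at each limb gene, and the 3 nearest to each threshold on either side. Some peaks that this rule names are not reported here. Other members at genes with 3 or more, and at marker genes, were named after their values were seen.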

Additional observations from a re-analysis of the deposited data

How the results depend on the processing

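The number of weakened peaks depended mostly on the thresholds. It was 701 at a difference of -0.5 and 319 at -0.7, and 733 at a Hox13-/- mean of 4 and 336 at 5. With a peak call in a Hox13-/- library in place of the level it was 242. With median centring, quantile and cyclic loess normalization it was 579, 580 and 538, which shared 508, 507 and 483 members with the set. Leaving out 1 library gave 518 to 576 members, of which 422 to 457 were shared, so the set rests in part on single libraries. The calls over all peaks, 5146 lower and 7040 higher in Hox13-/-, became 6811 and 6017 with median centring, which turns their balance, 993 and 2120 with a difference beyond 0.58, and 3268 were lower when only peaks above the median mean signal were fitted. Without 1 library they ran from 2865 to 3552 lower and from 4650 to 5008 higher, the lowest numbers being those without Hox13-/- replicate 2 and without wild-type replicate 1, and 3112 were lower without Hox13-/- replicate 1. In these fits 511 to 515 of the 518 members were lower. Each of them leaves 1 library in a genotype, which is assumed to vary like the other genotype. With the replicate number as a block, 4967 peaks were lower and 7013 higher and all 518 members were lower. The replicate numbers share no stated source, and the deviations of the first replicates of both genotypes correlated at -0.0106 across peaks. The share with a HOX13 core match was 65.3% with CNATAAA and TCGTAAA and 18.9% in the 200 bp around the midpoint, where it was 17.8% in the lowered peaks under 4.5 and 7.17% in the other open distal peaks. Members at limb genes numbered 3 with the nearest of all genes and 8 within 100 kb. Of the named peaks' values under the alternatives, 327 kept their direction and an adjusted p under 0.05, though not always a difference of -0.58, and of the 3 others those near Tcp10c and Runx1t1 are given in the text. The peak call and per kb alternatives, the 32 words and the neighbouring peaks were chosen after seeing the data.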
